A study of Mus musculus with 19 samples.

Results

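SOXE, SOXD and SOXC are 3 groups of SOX transcription factors, each with 3 genes in the mouse: Sox8, Sox9 and Sox10 (SOXE), Sox5, Sox6 and Sox13 (SOXD), and Sox4, Sox11 and Sox12 (SOXC). These 9 genes were taken by symbol from an expression table of 22958 genes, together with the SOX9 and SOX3 binding peaks that the authors assigned to them, which were 14 of 4310 peaks. RNA-seq was done on 3 libraries of glia and 4 libraries of glial progenitor cells (GPC), and chromatin immunoprecipitation sequencing (ChIP-seq) on GPC, with 3 SOX9, 2 SOX3 and 2 NFIA samples. Both cell types came from mouse embryonic stem cells. Per the labels, neural fate was induced with 0.1 µM all-trans retinoic acid, cells carrying the surface antigen A2B5 were sorted with magnetic beads on day 8, and they were then grown with EGF and FGF2 at 10 ng/ml. The labels carry this same text for glia, so the sources used here give neither the time and factors in which the glia were grown nor the stem cell line, and no allele or transgene is named for either group. Nothing in the labels says that numbered replicates were independent cultures, and the p-values therefore reflect sample-to-sample spread that could be technical in part or in whole.

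SOX proteins bind DNA through a high-mobility-group (HMG) box that sits in the minor groove and bends the helix. SOXE proteins also carry a transactivation domain and act in neural crest, glia and cartilage: Sox9 is needed for the switch from making neurons to making glia, and Sox10 for myelinating cells. SOXD proteins lack a transactivation domain, dimerise through a coiled coil and modulate SOXE proteins, aiding Sox9 in cartilage and holding back Sox10 in oligodendrocyte precursors. SOXC proteins are transactivators of progenitors and young neurons.

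Reads in genes came to 6897294 to 17369367 per glia library and 12836998 to 22439837 per GPC library. GPC replicate 3, the deepest library, stood apart from the other GPC libraries on both leading principal components. On the first (90.38% of the variance), which separated glia and GPC, it scored 46.82 against 63.14 to 64.76 for the other GPC libraries and -80.37 to -79.14 for glia, so it lay nearer to glia. On the second (4.476%) it scored 35.84 against -11.37 to -9.257 for the other GPC libraries. Of 13588 genes tested, 9568 (70.4%) differed between glia and GPC, with 4789 (35.2%) higher and 4779 (35.2%) lower in glia (two-sided quasi-likelihood test of edgeR, called where the p adjusted by Benjamini-Hochberg was under 0.05), and in 9440 (69.5%) the libraries of the groups did not overlap in CPM, the counts scaled to library size. Markers matched the label of glia in part. Summed astrocyte markers lay between 7440 and 9618 RPKM in glia and between 1116 and 1488 RPKM in GPC. Apoe (mean 3364 RPKM) and Gfap (3258 RPKM) made up most of the glia sum. Of the 12 astrocyte markers, 8 were called higher and 4 lower in glia. Summed myelin genes lay between 1732 and 2447 RPKM in glia and between 108.3 and 131.2 RPKM in GPC. RPKM, the reads scaled to gene model length and library size, is the authors' value and gives levels throughout; log2 changes come from the counts.

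All 9 genes had enough reads to be tested, with 149 to 14165 reads per library. Of the 9, 2 were higher in glia (Sox9 and Sox10), 3 were lower (Sox5, Sox13 and Sox11) and 4 did not pass the test (Sox8, Sox6, Sox4 and Sox12). That is 55.6% called, against 70.4% of all genes tested, and the same 5 genes were those whose groups did not overlap in CPM, against 69.5% of all genes. The median log2 change, glia over GPC, was -0.01 over the 9 genes and 0.00 over all genes, and the median size of a change was 0.41 for the 9 and 0.50 for all. Each group of 3 therefore split: SOXE had 2 higher and 1 not called, SOXD 2 lower and 1 not called, and SOXC 1 lower and 2 not called. These are bulk libraries, in which fewer cells of a type and less RNA per cell cannot be told apart.

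**Figure D1:**
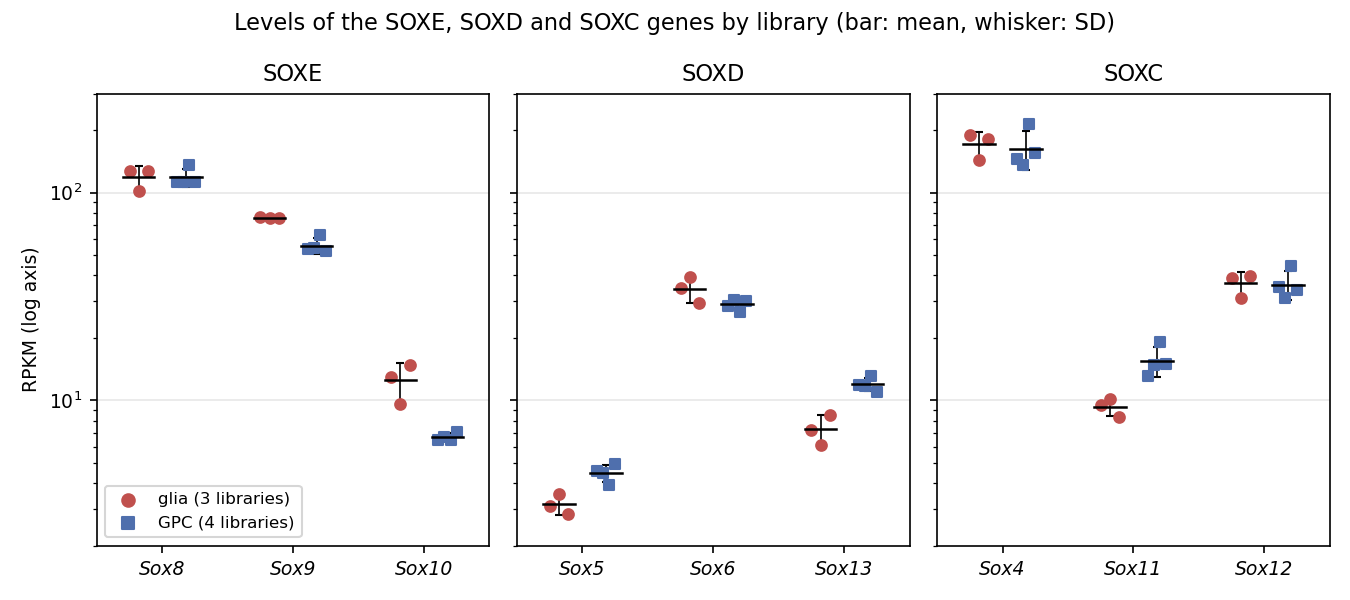
RPKM of each gene in the 3 glia libraries (red circles) and the 4 GPC libraries (blue squares), on a log axis, with the mean as a bar and the SD as a whisker. Sox9 and Sox10 lie higher in every glia library than in any GPC library, Sox5, Sox13 and Sox11 lie lower, and the other genes overlap.

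Among the SOXE genes, Sox9 and Sox10 were higher in glia and Sox8 was not called. Sox10, the SOXE factor of oligodendrocytes and Schwann cells, had 12.96, 9.662 and 14.8 RPKM in glia replicates 1 to 3 and 6.451, 6.647, 6.441 and 7.06 RPKM in GPC replicates 1 to 4. Its lowest glia library, replicate 2, was still above its highest GPC library, and the log2 change was 0.90 ± 0.13 (SE; adjusted p = 0.000142, edgeR's quasi-likelihood test). This was the largest change of the 9 genes, and 29.2% of all genes tested changed by more in either direction. Sox9, which drives the start of gliogenesis, had 76.41, 75.24 and 75.84 RPKM in glia and 53.48, 53.93, 62.71 and 52.46 RPKM in GPC. The 3 glia values lay close together and above every GPC value, and the log2 change was 0.41 ± 0.08 (adjusted p = 0.00069, edgeR's quasi-likelihood test). Sox8, a SOXE factor that overlaps in function with the other two, had 127.8, 101.9 and 127 RPKM in glia and 113, 112.7, 136.5 and 112.4 RPKM in GPC. Its groups overlapped, and its log2 change of -0.03 ± 0.11 had a 95% interval of -0.23 to 0.18 (adjusted p = 0.837, edgeR's quasi-likelihood test).

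Sox8 was nonetheless the most abundant SOXE transcript in every library. It made up 57.2 ± 2.36% of the summed SOXE RPKM in glia (SD, n = 3) and 65.5 ± 0.577% in GPC (n = 4). Sox9 made up 36.8 ± 3.05% in glia and 30.8 ± 0.311% in GPC, and Sox10 5.98 ± 0.813% in glia and 3.7 ± 0.411% in GPC. None of these 3 shares overlapped between the groups. Shares of a family add up to the whole, here and for SOXD and SOXC below, so they are not separate results. A share can differ where the gene itself was not called, as for Sox8. The ratio of Sox8 to Sox9 was 1.67, 1.35 and 1.68 in glia replicates 1 to 3, against 2.09 to 2.18 in GPC. The ratio of Sox9 to Sox10 was 5.9, 7.79 and 5.12 in glia and 7.43 to 9.74 in GPC; here glia replicate 2 fell inside the range of GPC. The SOXE sum was 207 ± 17.7 RPKM in glia and 181 ± 16.5 RPKM in GPC, and the groups overlapped.

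Among the SOXD genes, Sox5 and Sox13 were lower in glia and Sox6 was not called. Sox13, the SOXD member studied mainly in lymphocytes and the neural tube, had 7.208, 6.091 and 8.548 RPKM in glia and 11.88, 11.74, 13.17 and 11 RPKM in GPC. The groups were separate and the log2 change was -0.73 ± 0.12 (adjusted p = 0.000295, edgeR's quasi-likelihood test). Sox5, known with Sox6 for restraining oligodendrocyte maturation, had 3.112, 3.531 and 2.838 RPKM in glia and 4.562, 4.462, 3.935 and 4.946 RPKM in GPC. It was the lowest of the 9 genes in both groups, and its log2 change was -0.54 ± 0.11 (adjusted p = 0.000987, edgeR's quasi-likelihood test). Sox6, the close relative of Sox5, had 34.58, 39.11 and 29.46 RPKM in glia and 28.5, 30.6, 26.71 and 30.22 RPKM in GPC. Glia replicate 3 fell among the GPC values, and the log2 change of 0.21 ± 0.09 missed the threshold (95% interval 0.04 to 0.39, adjusted p = 0.057, edgeR's quasi-likelihood test). It passed without glia replicate 3 (0.31, adjusted p = 0.00737) and with a filter of at least 50 counts in 3 libraries (0.25, adjusted p = 0.0317).

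Sox6 dominated the SOXD transcripts, with 76.5 ± 4.09% of the summed RPKM in glia and 63.8 ± 2.12% in GPC. Sox13 held 16.5 ± 4.23% in glia and 26.4 ± 2.69% in GPC, and Sox5 7.04 ± 0.177% in glia and 9.84 ± 0.75% in GPC. All 3 shares were separate between the groups, but they are bound to each other, and Sox6 itself was not called. The SOXD sum was close, at 44.8 ± 3.95 RPKM in glia and 45.4 ± 1.32 RPKM in GPC. The ratio of Sox6 to Sox5 was 11.1, 11.1 and 10.4 in glia against 6.11 to 6.86 in GPC. Sox5 and Sox6 each have several transcripts joined in 1 line of the table and share their loci with noncoding genes in the annotation, so their counts do not separate isoforms and may hold reads of those genes. Sox4 also shares its locus with a noncoding gene, Gm46405.

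Among the SOXC genes, Sox11 was lower in glia, and Sox4 and Sox12 were not called. Sox11, a SOXC factor of neuronal differentiation, had 9.489, 10.13 and 8.319 RPKM in glia and 13.06, 14.86, 19.05 and 15.01 RPKM in GPC. No glia library reached the lowest GPC library, and the log2 change was -0.77 ± 0.13 (adjusted p = 0.000369, edgeR's quasi-likelihood test). Sox4, which overlaps with Sox11 in young neurons and is used more widely, had 188.8, 143.6 and 181.1 RPKM in glia and 145.9, 135.7, 213 and 156 RPKM in GPC. It was the most abundant of the 9 genes in both groups, at rank 331 of the 22958 genes in glia and 419 in GPC by mean RPKM. Its log2 change was 0.04 ± 0.17 (95% interval -0.28 to 0.37, adjusted p = 0.827, edgeR's quasi-likelihood test), and 0.21 without GPC replicate 3, its highest library (adjusted p = 0.0642). Sox12, the weakest transactivator of the 3, had 38.97, 30.97 and 39.68 RPKM in glia and 35.31, 31.08, 44.21 and 33.93 RPKM in GPC. The groups overlapped and the log2 change was -0.01 ± 0.13 (95% interval -0.27 to 0.25, adjusted p = 0.943, edgeR's quasi-likelihood test), or 0.11 without GPC replicate 3 (adjusted p = 0.284).

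Sox4 held 78.8 ± 0.942% of the summed SOXC RPKM in glia and 75.8 ± 1.08% in GPC. Sox11 held 4.37 ± 0.981% in glia and 7.28 ± 0.651% in GPC, and neither share overlapped between the groups. Sox12 held 16.8 ± 0.454% in glia and 17 ± 0.925% in GPC, and these overlapped. The ratio of Sox4 to Sox11 was 19.9, 14.2 and 21.8 in glia, against 9.13 to 11.2 in GPC. The SOXC sum was 217 ± 28.3 RPKM in glia and 214 ± 42.4 RPKM in GPC.

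**Figure D2:**
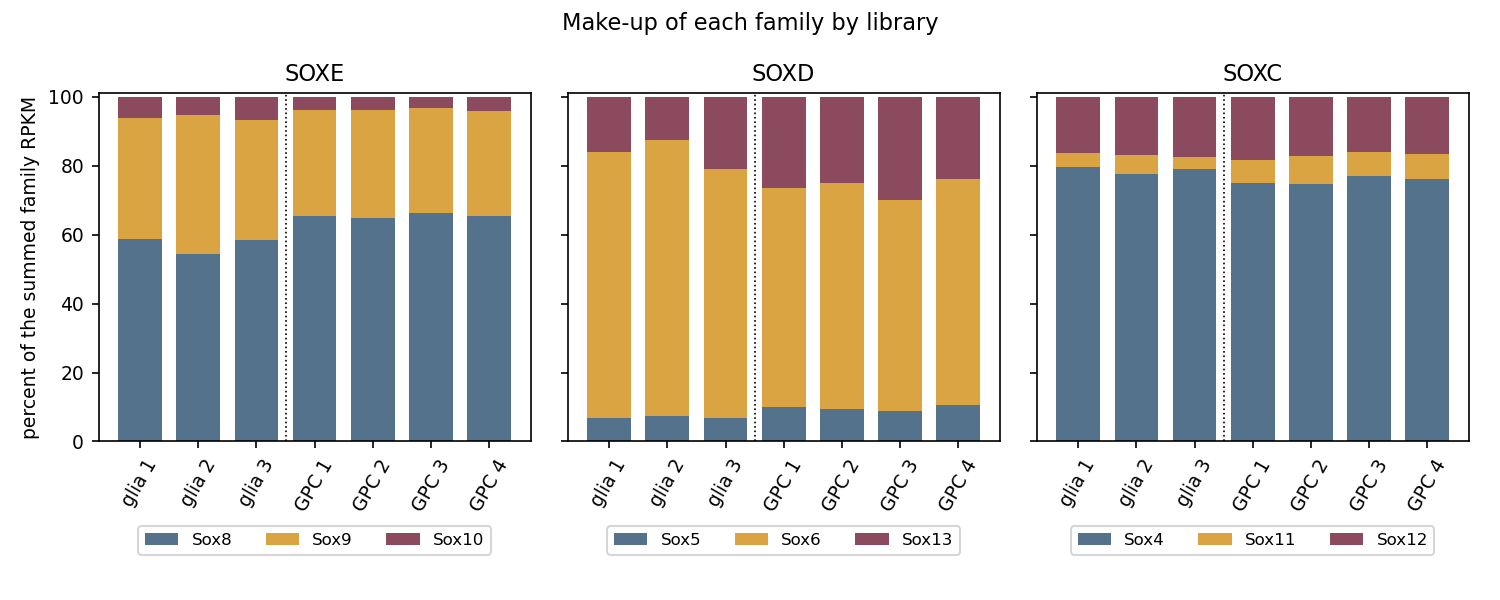
Percent of the summed family RPKM held by each gene, in each library (glia left of the dotted line, GPC right). Sox8, Sox6 and Sox4 hold the largest part of their family in every library, and the parts of Sox13 and Sox11 are smaller in glia than in GPC.

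**Figure D3:**
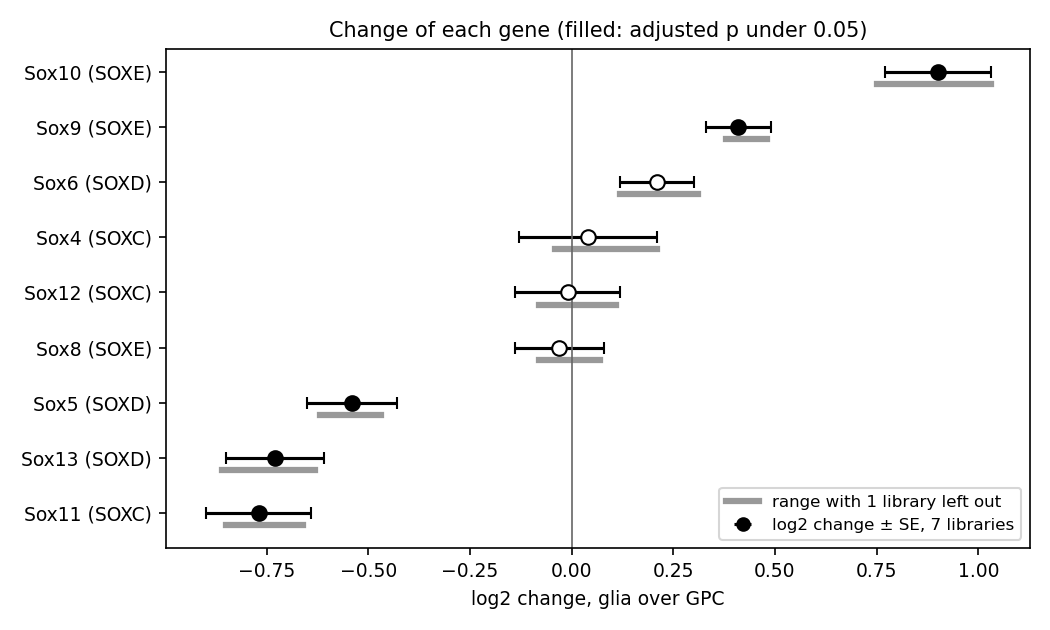
Log2 change, glia over GPC, of each gene (point and SE; filled where the adjusted p is below 0.05), with the range of the change when any 1 library is left out (grey bar). The 5 filled points keep their side of 0 over that range, from 0.90 for Sox10 to -0.77 for Sox11, and the ranges of Sox4, Sox12 and Sox8 cross 0.

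The order of the 9 genes by level differed between the groups at the low end. In glia it ran, by mean RPKM, from Sox4 (171) through Sox8 (119), Sox9 (75.8), Sox12 (36.5), Sox6 (34.4), Sox10 (12.5), Sox11 (9.31) and Sox13 (7.28) to Sox5 (3.16). Neighbours whose glia values overlapped were Sox12 and Sox6, Sox10 and Sox11, and Sox11 and Sox13. In GPC the first 5 places were the same, with means of 163 for Sox4, 119 for Sox8, 55.6 for Sox9, 36.1 for Sox12 and 29 for Sox6. Then followed Sox11 (15.5), Sox13 (11.9), Sox10 (6.65) and Sox5 (4.48). In GPC the values of Sox4 and Sox8 overlapped, as did those of Sox11 and Sox13. Sox10 thus stood above Sox11 and Sox13 by mean in glia, overlapping Sox11, and below both in every GPC library.

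Some of the spread between libraries was shared by several of the genes. In GPC replicate 3 the CPM of Sox4 was 1.48 times the mean of the other GPC libraries, that of Sox11 1.35 times, Sox12 1.34 times, Sox8 1.23 times, Sox9 1.19 times and Sox13 1.16 times. Sox10 (0.97 times), Sox6 (0.91 times) and Sox5 (0.848 times) were not raised there. In glia replicate 2, the shallowest library, Sox10 (0.684 times the mean of the other glia libraries), Sox13 (0.761), Sox4 (0.762), Sox12 (0.774) and Sox8 (0.785) were lower, and Sox6 (1.2), Sox5 (1.18) and Sox11 (1.12) higher. Without GPC replicate 3 the log2 changes of the 5 called genes were 0.48 for Sox9, 0.90 for Sox10, -0.61 for Sox5, -0.66 for Sox13 and -0.66 for Sox11, with adjusted p of at most 0.000108 (edgeR's quasi-likelihood test). The part of depth in these shared shifts was not tested. The fit without GPC replicate 3 leaves GPC replicates 1, 2 and 4, and its p-values rest on their small spread. Pairs of these had a chi-square per gene, the count differences relative to sampling noise, of 1.997 to 3.459. Their pairs with replicate 3, the deepest library, had 24.61 to 28.44, and glia pairs 4.164 to 9.574. The measure grows with depth. The labels do not say whether replicates 1, 2 and 4 were separate cultures.

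**Figure D4:**
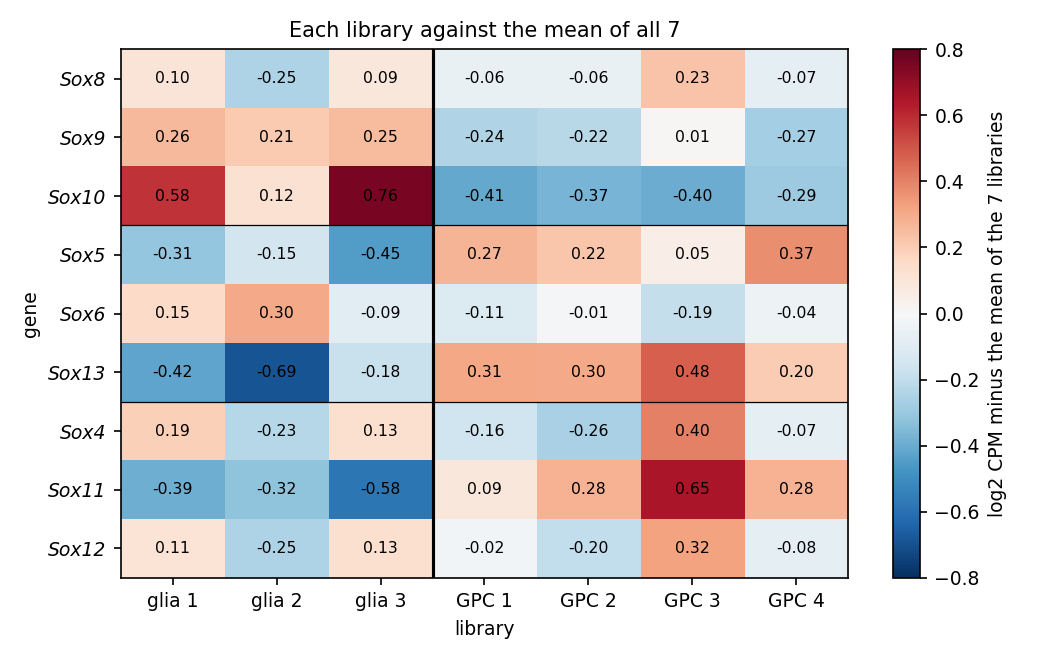
Log2 CPM of each gene in each library minus its mean over the 7 libraries (columns: glia left of the black line, GPC right; rows: genes, grouped as SOXE, SOXD and SOXC). Sox11 reaches 0.65 and Sox4 0.40 in GPC replicate 3, and Sox13 reaches -0.69 in glia replicate 2.

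For each SOX gene, the 2 genes with the nearest profiles over the 7 libraries were listed. Likeness was taken as the root mean square difference of log2 CPM after centring each gene on its own mean. The listed genes were picked as the nearest among all genes tested, so they lie far below the median by construction. Shared regulation was not tested. The nearest to Sox9 were 2500003M10Rik and Sike1, both at 0.030, where the median gene was at 0.38. The nearest to Sox10 were Apbb1 (0.049) and Zdhhc14 (0.054), and the nearest to Sox8 were 1500015A07Rik (0.042) and Cited2 (0.044). The nearest to Sox5 were Rfx7 and Rreb1 (both 0.046), to Sox6 Col4a3bp (0.043) and Phc3 (0.045), and to Sox13 Spr (0.052) and Rpl14 (0.059). Llgl1 was the nearest gene to both Sox4 (0.057) and Sox12 (0.040), followed by Pank1 for Sox4 (0.070) and Fbxw4 for Sox12 (0.041). The nearest to Sox11 were Pdk3 (0.048) and Neto2 (0.051).

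The ChIP-seq lists ask where SOX9 and SOX3 were bound near these genes in GPC. SOX9 had 10 peaks assigned to 5 of the 9 genes: 4 to Sox6, 2 each to Sox5 and Sox4, and 1 each to Sox9 and Sox11. SOX3 had 4 peaks assigned to 3 of them: 2 to Sox6 and 1 each to Sox5 and Sox4. Sox8, Sox10, Sox13 and Sox12 had none in either list. These are 55.6% and 33.3% of the 9 genes, while 8.65% of the 22958 genes in the expression table had a SOX9 peak and 4.27% a SOX3 peak. Of the SOXE genes only Sox9 had a peak, although Sox8 was more abundant in GPC, and all 3 SOXC and SOXD genes with SOX3 peaks (Sox5, Sox6 and Sox4) had SOX9 peaks as well. There is 1 list per factor over all its samples, so these counts have no replicate error. The counts and shares take peaks at any distance, and 9 of the 10 SOX9 peaks and 3 of the 4 SOX3 peaks lay beyond 100 kb. Whether the space between a gene and its neighbours bears on how many distant peaks it is assigned was not tested. The higher shares are therefore no measure of preferred binding at these genes. Within 100 kb of the gene's start only Sox5 had a peak, 1 of SOX9 and 1 of SOX3. The share of all genes with a peak at that distance was not computed.

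Distances were given by the authors from 1 transcription start site (TSS) per gene, and most of the assigned peaks were far from it. Of the 10 SOX9 peaks 9 (90%) lay more than 100 kb from that TSS, against 32.1% of all 2943 SOX9 peaks, and the median distance was 268.9 kb against 45.22 kb. Of the 4 SOX3 peaks 3 lay beyond 100 kb, against 33.9% of all 1367 SOX3 peaks. The nearest was the SOX9 peak 27.41 kb downstream of the Sox5 TSS at chr6:144130296-144130896 (mm9, as all peak positions here). The SOX3 peak of Sox5 lay 54.24 kb downstream of that TSS, at chr6:144103662-144103858, and the second SOX9 peak 459.2 kb downstream. An annotation of build mm9 was not used here, so the peaks were not placed in introns or between genes, and distances to other start sites were not computed. For Sox6, RefSeq (GRCm38.p6) lists 6 start windows spread over 237.1 kb, so its peaks may lie nearer to another start.

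Sox6 had the most peaks, and of the 14 peaks only its pair of a SOX9 and a SOX3 peak overlapped across factors. Its SOX9 peaks lay 264.8, 273, 324.2 and 324.4 kb downstream of the TSS, the last 2 overlapping each other, and its SOX3 peaks 273.1 and 493.4 kb downstream. The SOX9 peak at chr7:122865326-122865926 held the SOX3 peak at chr7:122865455-122865622. Of the 10 SOX9 peaks 1 (10%) thus overlapped a SOX3 peak, close to the 10.8% of all SOX9 peaks. Of the 2187 genes with any SOX9 peak, 53 (2.42%) had 4 or more, as Sox6 did. Upstream of Sox6, 287.8 kb from its TSS, SOX9, SOX3 and NFIA peaks overlapped at 1 place, which the authors assigned to Plekha7; 1.33% of all SOX9 peaks overlapped both other factors.

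The peak of SOX9 at its own gene lay 118.7 kb downstream of the Sox9 TSS, at chr11:112761975-112762575, with no SOX3 or NFIA peak over it. Within 500 kb of that TSS were 3 more SOX9 peaks, 405.2, 406.3 and 439.3 kb downstream and assigned to Slc39a11, and 1 SOX3 peak 221.1 kb upstream, assigned to Gm11678. The Sox4 peaks of SOX9 lay 107.9 and 368.3 kb downstream, and that of SOX3 417.4 kb upstream. The peak of SOX9 assigned to Sox11 lay 233.1 kb upstream, at chr12:28260332-28260932. For the genes with no peak, the 2 nearest protein-coding genes on each side were examined by the gene order of GRCm38.p6. Lmf1, beside Sox8, had 1 SOX9 peak 29.87 kb downstream of its own TSS, Trib3, near Sox12, had 1 SOX9 peak 0.318 kb downstream of its own, and the neighbours of Sox10 and Sox13 had none.

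NFIA peaks were found around these genes, mostly apart from the SOX peaks. Of the 10 SOX9 peaks 1 (10%) overlapped an NFIA peak, against 28.4% of all SOX9 peaks, and none of the 4 SOX3 peaks did, against 7.39% of all SOX3 peaks. These shares were not matched for distance: 90% of these SOX9 peaks lay beyond 100 kb, against 32.1% of all SOX9 peaks. The overlapping one was the Sox4 peak 368.3 kb downstream, at chr13:28676963-28677563, with an NFIA score of 25. Within 500 kb of the TSS there were 13 NFIA peaks at Sox4, 8 at Sox6, 4 at Sox9, 4 at Sox5 and 3 at Sox11. The median was 5 over the 1892 genes whose TSS could be read from the SOX lists, with 3 and 7 as the quartiles. Within 100 kb there were 3 at Sox4, 1 each at Sox6 and Sox11, and none at Sox9 or Sox5; the median over those 1892 genes was 1, and 30.2% had none. The authors' scores of these peaks ran from 14 to 42, where the list runs from 14 to 1677 with a median of 16; what the score measures is not stated.

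**Figure D5:**
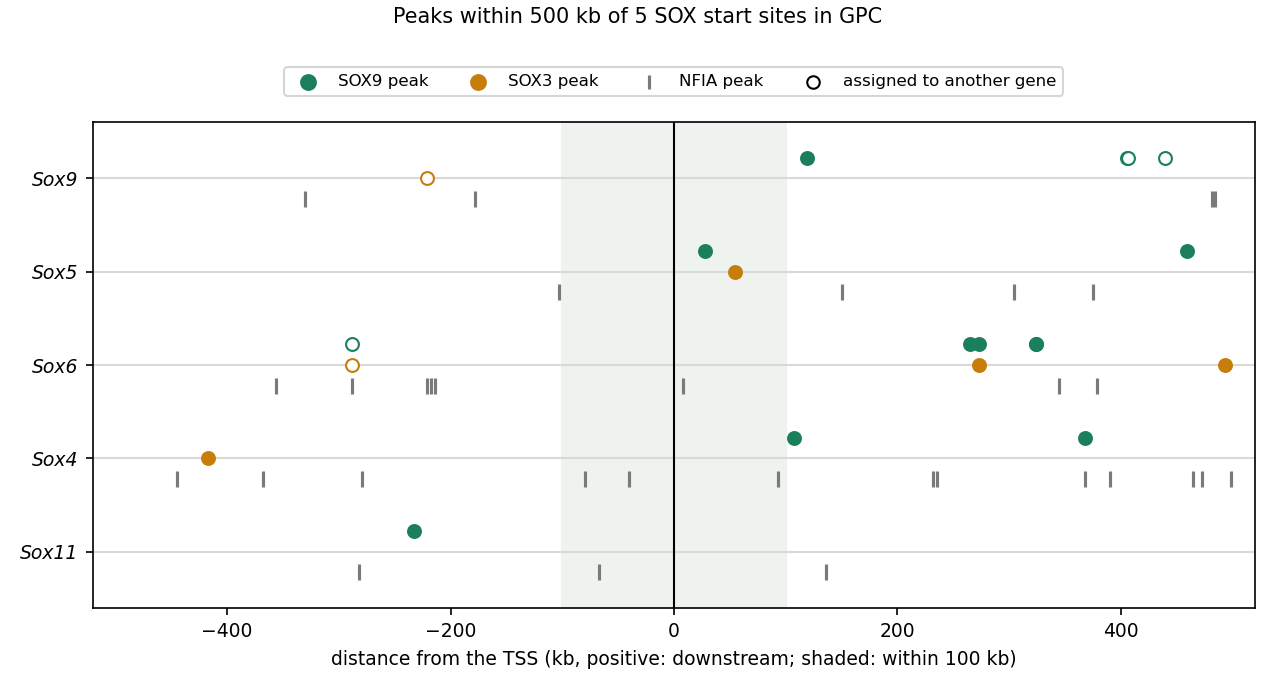
Peaks of SOX9 (green), SOX3 (orange) and NFIA (grey ticks) within 500 kb of the TSS of the 5 genes with an assigned SOX peak, by distance from the TSS in kb (positive: downstream). Open circles are peaks assigned to another gene, and the shaded band of 100 kb on each side holds 1 SOX9 and 1 SOX3 peak, both at Sox5.

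Promoter sequences were taken from RefSeq (GRCm38.p6), from 250 bases before to 50 after a start; 7 of the 9 genes matched, with 12 start sites, 6 of them of Sox6. They are on another build than the peaks and were not matched to the TSS behind the authors' distances. They were searched for exact matches to the SOX core and 1 longer form only. Other letters that SOX factors may bind were not searched, so a window without a match may still hold a SOX site. The SOX core ACAAT, on either strand (ATTGT), was in 1 promoter of Sox5 and 3 of the 6 of Sox6, and not in those windows of Sox8, Sox13, Sox4, Sox11 or Sox12; 31% of all 32851 promoters hold it. The longer AACAATG was in 1 of the Sox6 promoters, against 3.78% of all. The Sox5 window and that Sox6 window, number 5 of its 6, follow on the gene's strand, with ACAAT or ATTGT in capitals. The first is chr6:143947057-143947356 (minus strand) and the second chr7:115824661-115824960 (minus strand).
Sox5: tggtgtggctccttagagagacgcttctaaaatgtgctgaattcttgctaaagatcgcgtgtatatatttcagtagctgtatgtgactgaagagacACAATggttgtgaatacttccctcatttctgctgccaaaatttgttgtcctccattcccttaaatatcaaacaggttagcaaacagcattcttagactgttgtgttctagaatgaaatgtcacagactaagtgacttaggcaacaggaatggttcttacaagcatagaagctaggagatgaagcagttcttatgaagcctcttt
Sox6: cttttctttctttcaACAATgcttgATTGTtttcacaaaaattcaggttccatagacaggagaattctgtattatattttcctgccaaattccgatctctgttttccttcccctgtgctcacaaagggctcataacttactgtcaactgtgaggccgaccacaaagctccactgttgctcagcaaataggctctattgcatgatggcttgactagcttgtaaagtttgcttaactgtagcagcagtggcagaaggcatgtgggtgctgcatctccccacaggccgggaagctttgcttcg

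Sox4 and Sox11, the SOXC genes with SOX9 peaks, held no ACAAT in these windows. They are shown with the short NFI motif TTGGC (or GCCAA) in capitals, because NFIA was also profiled. Sox4 had 3 such matches and Sox11 1; 46.7% of all promoters hold one. The letters overlap those of the CCAAT box, CCAAT or ATTGG, found in 37.4% of promoters: 2 of the 3 matches in Sox4 and the match in Sox11 ran into one. The full NFI palindrome was in none of the 12 windows, against 0.0365% of all. The windows are chr13:28953650-28953949 for Sox4 and chr12:27342669-27342968 for Sox11, both on the minus strand.
Sox4: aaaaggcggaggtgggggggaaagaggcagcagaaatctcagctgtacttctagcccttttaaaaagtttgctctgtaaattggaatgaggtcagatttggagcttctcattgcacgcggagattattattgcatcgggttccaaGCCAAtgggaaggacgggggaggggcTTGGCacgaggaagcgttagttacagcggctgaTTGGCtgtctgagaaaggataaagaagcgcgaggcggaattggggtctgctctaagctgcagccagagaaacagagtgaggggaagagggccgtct
Sox11: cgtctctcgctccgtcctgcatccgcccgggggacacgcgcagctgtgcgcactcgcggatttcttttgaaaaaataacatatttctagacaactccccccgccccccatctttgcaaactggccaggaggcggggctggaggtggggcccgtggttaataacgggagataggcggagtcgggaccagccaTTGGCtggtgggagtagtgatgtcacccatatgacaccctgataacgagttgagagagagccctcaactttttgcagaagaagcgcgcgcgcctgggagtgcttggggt

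Genes that the literature ties to these factors were then read from the same fit, by list. The lists were chosen with earlier results of these data known, so their counts are a description and not a test. Of 15 myelin genes linked to SOX10, all 14 tested were higher in glia (35.2% of all genes were), with a median log2 change of 5.61. Mobp, a myelin protein gene, averaged 17.7 ± 0.462 RPKM in glia and 0.0437 ± 0.069 RPKM in GPC, and changed by 8.14 ± 0.28 on the log2 scale (9.76 with GPC replicate 3 left out). Mal, another myelin protein gene, changed by 7.92 ± 0.25. Of 10 genes linked to SOX10 in precursors and neural crest, 7 were tested, 4 were higher and 2 lower. Pdgfra, the PDGF receptor of precursors, averaged 53.6 ± 4.61 RPKM in glia and 20.7 ± 2.99 RPKM in GPC (1.34 ± 0.11), and Ret, a crest receptor gene, was higher at under 1 RPKM (2.90, or 3.65 without GPC replicate 3). Cspg4, the NG2 proteoglycan gene, was lower (-1.45 ± 0.23), as was Egr2, a Schwann cell factor (-3.13 ± 0.60, or -2.46 without GPC replicate 3). Adjusted p of the 6 genes named here were at most 0.0018 (edgeR's quasi-likelihood test).

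Most of the tested cartilage genes linked to SOX9, SOX5 and SOX6 were higher in glia. Of 14 listed, 10 were tested, 7 were higher and 2 lower (35.2% of all genes each way), with a median log2 change of 1.02. The 1 tested gene not called was Col2a1, the collagen II gene (0.98 ± 0.65, adjusted p = 0.212, edgeR's quasi-likelihood test), whose groups overlapped. Col9a2, a collagen IX chain, averaged 9.16 ± 1.55 RPKM in glia and 1.68 ± 0.501 RPKM in GPC (2.39 ± 0.21), and Matn3, a matrix protein gene, 1.91 ± 0.157 RPKM in glia and 0.195 ± 0.0721 RPKM in GPC (3.16 ± 0.24). Lower were Acan, the aggrecan gene (-1.63 ± 0.38, at under 0.2 RPKM), and Col9a3, another collagen IX chain, at 19.3 ± 1.67 RPKM in glia and 28.2 ± 3.21 RPKM in GPC (-0.57 ± 0.10). Of 12 markers of astrocytes, a cell type known for Sox9, 8 were higher and 4 lower, with a median of 2.01. Gfap, the astrocyte filament, and Apoe, a lipid carrier, changed by 8.54 ± 0.44 and 6.08 ± 0.58 (6.81 for Apoe without GPC replicate 3), while Acsbg1, an acyl-CoA synthetase gene, and Aldh1l1, a folate enzyme gene, changed by -3.61 ± 0.21 and -1.19 ± 0.20. Among the called genes named here the largest adjusted p was 0.00322, for Acan (edgeR's quasi-likelihood test).

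Neuronal genes linked to SOXC moved both ways. Of 15 tested, 7 were higher and 4 lower in glia, with a median log2 change of 0.10. Among all genes tested, 35.2% were higher and 35.2% lower. Their summed level was 1213 to 1324 RPKM in glia and 1537 to 1648 RPKM in GPC, but 1 gene, Tubb2b, carried that direction. The other 14 genes summed to 670.3 to 707.1 RPKM in glia and 620.5 to 643.6 RPKM in GPC. Elavl3, a neuronal RNA-binding protein gene, averaged 32 ± 6.91 RPKM in glia and 2.81 ± 0.164 RPKM in GPC (3.48 ± 0.15), and Dcx, a microtubule protein gene of young neurons, 30.9 ± 3.68 RPKM in glia and 4.65 ± 0.274 RPKM in GPC (2.69 ± 0.09). Tead2, a reported target of SOXC factors, averaged 31 ± 2.8 RPKM in glia and 104 ± 7.97 RPKM in GPC (-1.77 ± 0.09), and Tubb2b, a tubulin gene, changed by -0.70 ± 0.08. The largest adjusted p among these 4 was 3.6e-05 (edgeR's quasi-likelihood test).

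Of 15 transcription factor genes that act with SOX factors in glia, 9 were higher and 4 lower, with a median log2 change of 0.67, where 35.2% of all genes tested were called each way. Myrf, the myelin regulatory factor that acts with SOX10 (Gm98 in the table), averaged 24.8 ± 5.23 RPKM in glia and 1.63 ± 0.27 RPKM in GPC (3.88 ± 0.18), and Zfp488, an oligodendrocyte factor, changed by 3.12 ± 0.23. Olig1 and Olig2, the bHLH factors of the oligodendrocyte lineage, were lower, with changes of -1.19 ± 0.12 and -0.99 ± 0.09. Of the 11 other SOX genes in the table only 4 had enough reads to be tested. Sox3 was lower (-1.09 ± 0.26, adjusted p = 0.00638), and Sox1 (-0.20) and Sox21 (-0.02) were not called. Sox2 was called higher (0.24 ± 0.08, adjusted p = 0.0273, edgeR's quasi-likelihood test), with overlapping groups. The Sox2 call ended without glia replicate 1 (adjusted p = 0.109 at most over the 7 libraries left out in turn), glia replicate 3 or GPC replicates 1, 2 or 4.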

How the data were processed

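Reads per gene were deposited by the authors as whole-number counts without normalization, and RPKM values were computed by the authors from gene model length and library reads, per the file headers. The build was mm9, and MACS and MACS2 are named, per the submitters' processing notes; the sources used here name no aligner, counter or strand setting. Peak positions, assigned genes and distances are the authors', and NFIA peaks carry a deposited score of unstated meaning. Glia and GPC counts were compared in R 4.3.3 with edgeR 4.0.16: TMM scaling, filterByExpr (13588 genes left), robust quasi-likelihood fit, Benjamini-Hochberg over all genes, called at 0.05. The SE is the change over the square root of F. All 95% intervals use the normal approximation, which takes no account of the few libraries, and are not adjusted for the number of genes. The fit was tested on simulated data. Peaks counted as overlapping from 1 bp. The mm9 TSS was read from peak centre and signed distance, with strands from RefSeq and, for Sox9, general knowledge. Alternatives were other scaling (DESeq2 size factors), DESeq2 1.42.0, other filters, a fit that is not robust, each library left out and a replicate block. The 9 members, the lists and the rule for named genes (2 largest rises and falls per list, 2 nearest profiles per member) were chosen with earlier results of these data known. Input and H3K27Ac samples were not analysed here.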

Additional observations from a re-analysis of the deposited data

Results flagged for a closer look

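In 13 of 36 quantities examined over the 4 GPC libraries, 1 library lay far from the other 3 by the gap to its nearest neighbour relative to the whole range. In all 13 it was GPC replicate 3. Chance flags about 1 in 20 for a single quantity. The 36 share the same libraries, and the SOXE sum contains Sox8 and Sox9. They are therefore not independent, and the 13 cannot be set against that rate. Among the SOX genes, Sox8 had 136.5 RPKM there against 112.4 to 113 in the other GPC libraries, Sox9 62.71 against 52.46 to 53.93, Sox3 121.9 against 66.57 to 72.28, and the SOXE sum was 205.6 RPKM against 171.9 to 173.3. Higher there were also Gfap (15.4 RPKM), Apoe (103.6), Egr2 (7.563) and Mobp (0.1464). Lower there were Olig2 (491.3 RPKM), Pdgfra (16.2), Cspg4 (3.536), Acsbg1 (147.7) and Aldh1l1 (16.98).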

How the results depend on the processing

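The count of changed genes, 9568, stayed within 1.5 times under every alternative, at 8512 to 10273 with 1 library left out, 9289 with DESeq2 and 10118 without a filter on low counts. The 5 called SOX genes kept direction and call under all 13 alternatives each. With 1 library left out, log2 changes ran from 0.38 to 0.48 for Sox9, 0.75 to 1.03 for Sox10, -0.62 to -0.47 for Sox5, -0.86 to -0.63 for Sox13 and -0.85 to -0.66 for Sox11. Sox6 ran from 0.12 to 0.31 and passed without glia replicate 3, with at least 50 counts in 3 libraries (0.25, adjusted p = 0.0317) and with the replicate block (0.22, adjusted p = 0.0334). Sox8 ran from -0.08 to 0.07, Sox12 from -0.08 to 0.11 and Sox4 from -0.04 to 0.21, so their signs turned, as they did for Sox8 (0.01) and Sox12 (0.02) with at least 50 counts in 3 libraries; none passed, and the cause was not tested. Correlations of deviations between glia and GPC libraries of the same number were -0.02016, 0.1382 and 0.06835 for numbers 1 to 3. Those of unlike numbers ran from -0.1595 to 0.09433. With 3 glia and 4 GPC libraries, these values cannot tell whether replicate numbers pair the samples. The block gave 8900 calls. Restricted to 100 kb, 1 SOX9 and 1 SOX3 peak of these genes remained, where by construction fewer peaks are counted. Requiring an overlap of 0.5 of the shorter peak, or matching synonyms as well, changed no count of their peaks. Other SOX genes called higher numbered 0 to 2 and lower 1 to 2 with 1 library left out, and 2 and 2 without a filter. Sox10, Sox5 and Sox13 rest on 149 to 1048 reads per library.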
